A study of Rattus norvegicus with 12 samples.

Results

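The miR-30 family, with miR-384-5p, which carries the same seed, was examined in small RNA libraries from the hippocampus of 12 rats. Members were chosen by name. The rule took the 5p arms of miR-30a, 30b, 30c, 30d and 30e, the 3p arms of 30a, 30d and 30e, and miR-384-5p. Values were available for 8 of these 9 mature miRNAs, and rno-miR-30b-5p was not analysed here. The tables listed 753 mature miRNAs, of which 420 were retained for testing, including all 8 measured members. The question was whether a single high dose of ethanol changed miRNA expression in the hippocampus.

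All animals were adult male Sprague Dawley rats aged 70 to 80 postnatal days. The ethanol group (n = 8) was injected with 4 g/kg ethanol and the vehicle group (n = 4) with saline, and tissue was taken 3 h later. The labels name the right hippocampus, while the study describes whole tissue of the dorsal hippocampus, so every library mixed neurons, glia, vessels and any attached tissue. In such bulk tissue, fewer cells of a type and less of a miRNA per cell cannot be told apart. Each library came from 1 rat, and the remaining vehicle rats that the study describes were not analysed here. Library totals were between 1960702 and 4917929 estimated counts, with vehicle libraries between 2243412 and 4917929 and ethanol libraries between 1960702 and 3598773. All 5 neuronal marker miRNAs (among them miR-124-3p and miR-9a-5p) had at least 10 reads in every library and summed to between 30636 and 39011 CPM (counts per 1000000 counts of the scaled library total).

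Some libraries stood apart in miRNAs of other tissues. Muscle-type miRNAs (miR-1, miR-133 and miR-206) summed to 1685, 1626 and 1765 CPM in vehicle rats 9, 19 and 20 and to 1712 CPM in ethanol rat 16, against 128 CPM in vehicle rat 10 and 112 to 290 CPM in the other 7 ethanol rats. Of the 5 muscle-type miRNAs, miR-1-3p was at 0 in 3 libraries and miR-206-3p in 1. The 4 choroid plexus markers summed to between 28979 and 50272 CPM in vehicle rats and between 16517 and 70891 CPM in ethanol rats. The oligodendrocyte markers summed to 9332 to 17658 CPM in vehicle and 9827 to 19011 CPM in ethanol rats, the endothelial ones to 2436 to 2913 and 2207 to 2972 CPM, and those of blood and microglia to 432 to 579 and 304 to 722 CPM. Of the 24 markers in these 6 lists 22 were retained for testing, none of those 22 had an edgeR adjusted p under 0.05, and 1 muscle-type miRNA had an unadjusted p under 0.05. Results that touched these libraries are given below with the values of the rats concerned.

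A mature miRNA guides an Argonaute protein to messenger RNAs, mainly through its seed at bases 2 to 8, and so lowers their translation and stability. Each precursor hairpin can give a mature miRNA from its 5′ arm and another from its 3′ arm, and usually the product of one arm is kept at a much higher level. The 5p arms of the miR-30 family share their seed and can therefore recognise overlapping sets of targets, while the 3p arms carry other seeds. The family is abundant in many tissues, brain included, and miR-384-5p is known as a brain-enriched miRNA linked to synaptic plasticity.

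The sequences show how alike the 5p members are and where they part. They are RefSeq entries on the GRCr8 assembly, printed 5′ to 3′ with the seed (bases 2 to 8) in capitals.
rno-miR-30a-5p: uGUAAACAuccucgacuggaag
rno-miR-30e-5p: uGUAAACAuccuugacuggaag
rno-miR-30c-5p: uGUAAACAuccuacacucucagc
rno-miR-384-5p: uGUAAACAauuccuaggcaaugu
The seed GUAAACA stood in 4 of the 693 mature miRNA names of the reference table, which were these 4. The entry for rno-miR-30d-5p, a 5p arm with the same seed, was not part of this search. The 4 are therefore not all carriers of the seed. Counted from 1 at the 5′ end, miR-30a-5p and miR-30e-5p differed by 1 substitution, C13U, and were identical at 21 of 22 bases. The pair miR-30a-5p and miR-30c-5p was identical for its first 12 bases and at 17 of 22 in all. In miR-384-5p the shared sequence ended with the seed: its first difference from miR-30a-5p was at base 9, and 12 of 22 bases were identical. The tool that divided reads among such close relatives was not given, and the deposited counts were fractional in all 12 libraries for 7 of the 8 members, miR-30a-5p, miR-30d-5p, miR-30c-5p and miR-30e-5p among them. The separate levels of these members, and the ratios between them, are uncertain to that extent.

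The 3p arms are shown because they carry different seeds from their partners on the same hairpin.
rno-miR-30a-3p: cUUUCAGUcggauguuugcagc
rno-miR-30c-1-3p: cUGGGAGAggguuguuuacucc
rno-miR-30c-2-3p: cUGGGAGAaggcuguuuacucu
rno-miR-384-3p: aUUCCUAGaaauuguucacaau
The seed of miR-30a-3p, UUUCAGU, occurred in 1 mature name of the table. That search did not include rno-miR-30d-3p and rno-miR-30e-3p, so it does not show whether these members share the seed. The seed UGGGAGA was held by both 3p arms of miR-30c. The entries for rno-miR-30d-5p, rno-miR-30d-3p and rno-miR-30e-3p were not used here. Mature miR-30c-5p has 2 precursors with an identical product, 1 on chromosome 5 and 1 on chromosome 9, and its count cannot be divided between them. On chromosome 9, Mir30c2 neighbours Mir30a, and on chromosome 5, Mir30c1 and Mir30e both lie within Nfyc, the gene of a subunit of the transcription factor NF-Y. Mir384 lies on chromosome X within a long non-coding RNA gene.

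The hairpins of Mir30a and Mir384, with both mature arms in capitals, show the pair of products behind each arm ratio given further on.
Mir30a: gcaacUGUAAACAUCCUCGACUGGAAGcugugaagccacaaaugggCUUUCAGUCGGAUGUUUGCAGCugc
Mir384: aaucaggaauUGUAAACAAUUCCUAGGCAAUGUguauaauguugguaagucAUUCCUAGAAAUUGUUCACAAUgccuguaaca
The Mir30a hairpin is 71 nt long and that of Mir384 83 nt, with 19 and 18 nt between the arms.

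The family was one of the large fractions of hippocampal miRNA. The 8 measured members accounted for 12.01% to 13.7% of the reads in a library, with a median of 12.6% in the 4 vehicle rats and 12.8% in the 8 ethanol rats. The 95% Wilson interval of each share was at most 0.0462 percentage points to either side, which covers counting error only. Nearly all of this was 5p product: the 5 measured 5p members held between 11.7% and 13.4%. The miR-26 family, with its 2 members, held between 13.6% and 16.1% of the counts, the 4 miR-181 members between 12.3% and 18.2%, and let-7 with miR-98, 9 miRNAs in all, between 5.997% and 7.93%. The family's share thus varied less from rat to rat than that of miR-181, and the ethanol range lay within the vehicle range.

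Within the 5p members, miR-30a-5p alone supplied most of the counts. It made up 76.2% to 80.03% of their sum, miR-30d-5p 12.2% to 15.7%, miR-30c-5p 4.24% to 4.83%, miR-30e-5p 2.01% to 2.37% and miR-384-5p 0.914% to 1.23%. In vehicle rats the share of miR-30a-5p had a median of 77.3%, and in ethanol rats 79.3%. The 4 vehicle shares of miR-30a-5p, at most 78.6%, all lay below the 8 ethanol shares, which were at least 78.8%. The shares of miR-30d-5p lay the other way round, at 13.5% or more in vehicle rats and 13.4% or less in ethanol rats. These shares add to a fixed total, so they are given as a description. How often such shares separate in other families was not computed. For a different measure, the log2 ratio of 2 miRNAs with a median of at least 1000 CPM, the groups did not overlap in 10 of 3160 pairs (0.316%).

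**Figure D1:**
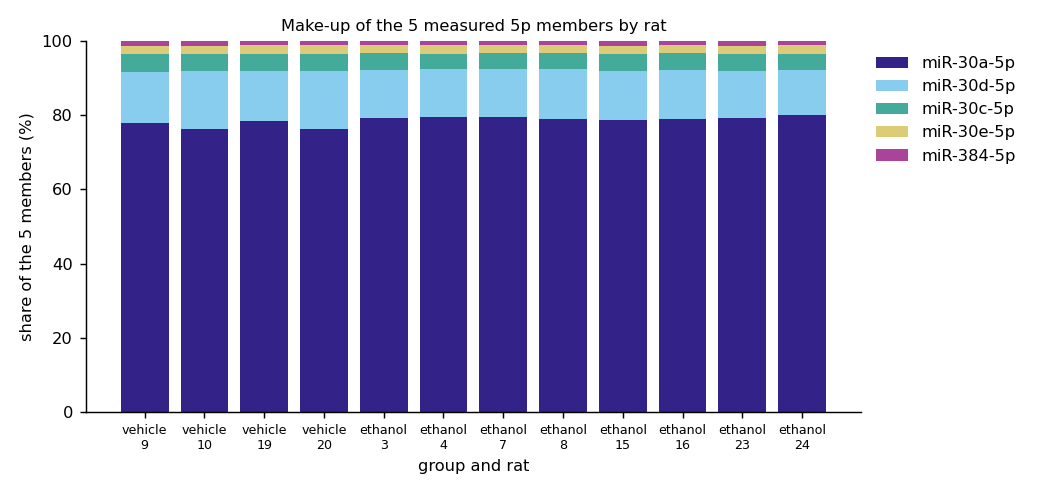
Share of the summed counts of the 5 measured 5p members (y axis, %) held by each member in each of the 12 rats (x axis, group and rat number). In every rat miR-30a-5p fills 76.2% to 80.03% of the bar and miR-30d-5p 12.2% to 15.7%.

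The members spanned median levels from 24.8 to 98903 CPM, in an order that held in nearly every library. CPM were scaled with TMM (trimmed mean of M-values) factors, and as counts of sequenced products they do not give absolute numbers of molecules. The order was miR-30a-5p, miR-30d-5p, miR-30c-5p, miR-30e-5p, miR-30a-3p, miR-384-5p, miR-30e-3p and miR-30d-3p. It was taken from the mean log2 CPM of these same libraries, so the tests of its steps are no independent support for it. Each neighbour in this order differed from the next within libraries (two-sided exact sign-flip permutation test over 12 libraries, adjusted p = 0.00057 for 6 of the 7 steps, which rests on the smallest p that the test can give, and 0.00244 for the remaining step). That step, between miR-30e-5p and miR-30a-3p, was the narrowest, at 1.06-fold and 11 of 12 libraries in order. The widest step, 9.41-fold, lay between miR-384-5p and miR-30e-3p, and the step from miR-30a-5p to miR-30d-5p was 5.84-fold. Among the 420 retained miRNAs, miR-30a-5p ranked 2 by median level, miR-30d-5p 15, miR-30c-5p 33, miR-30e-5p 48, miR-30a-3p 53, miR-384-5p 74, miR-30e-3p 168 and miR-30d-3p 284.

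**Figure D2:**
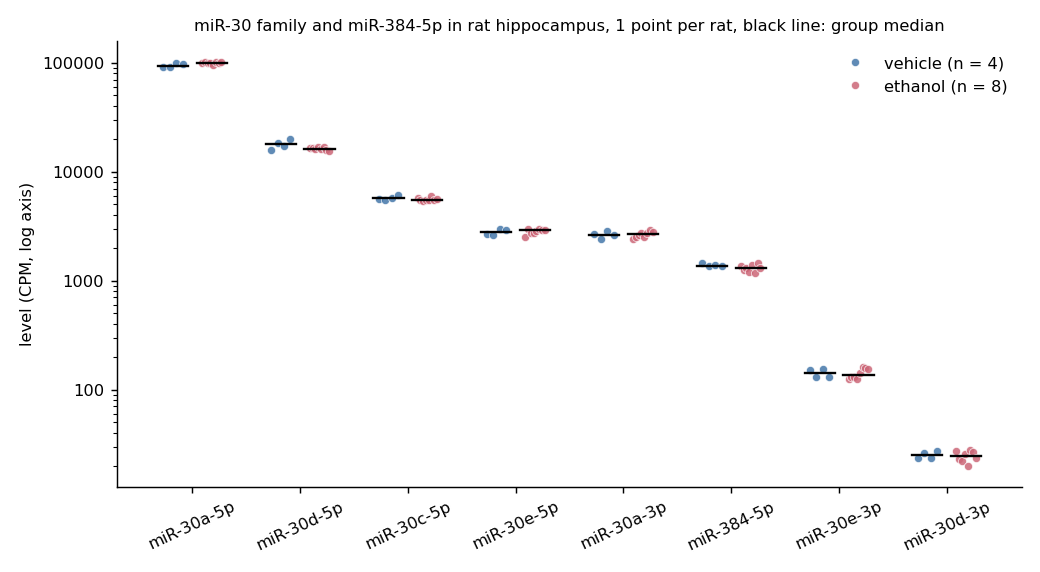
Level of each member (y axis, CPM, log axis) in the 4 vehicle and 8 ethanol rats, 1 point per rat, with black lines at the group medians. The members range from a median of 98903 CPM for miR-30a-5p to 24.8 CPM for miR-30d-3p, and in each member the points of both groups overlap.

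The members were measured with little spread between rats. The coefficient of variation over all 12 rats was 3.77% for miR-30c-5p, 3.88% for miR-30a-5p, 5.60% for miR-30e-5p, 6.17% for miR-30a-3p, 6.48% for miR-384-5p, 7.52% for miR-30d-5p, 10.04% for miR-30e-3p and 10.3% for miR-30d-3p. Over the 6 members with a median of at least 1000 CPM the median was 5.89%, beside 9.99% over the 80 retained miRNAs at that level. Among the 8 ethanol rats, miR-30a-5p had the lowest coefficient of those 80, at 2.11%, and among the 4 vehicle rats it ranked 18 from the lowest, at 4.89%.

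Between ethanol and vehicle rats no member differed after adjustment for all tests. With edgeR's quasi-likelihood test and Benjamini-Hochberg adjustment, 0 of the 420 retained miRNAs (0% of all tested) and 0 of the 8 members had an adjusted p under 0.05. At an unadjusted edgeR p under 0.05 there were 17 of 420 miRNAs (4.05%) and 1 of 8 members, miR-30d-5p. With a two-sided exact permutation test of mean log2 CPM there were 11 of 420 (2.62%) and 2 of 8 members, miR-30a-5p and miR-30d-5p, both at p = 0.0242 over all arrangements of the labels. In no member were the groups free of overlap, against 1 of 420 miRNAs (0.238%). The median log2 fold change of the 8 members was -0.02, with 3 members higher and 5 lower in ethanol rats, and that of all 420 was -0.02.

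The most abundant member, miR-30a-5p, is a guide strand known for restraining autophagy and the growth factor BDNF. In vehicle rats 9, 10, 19 and 20 it stood at 91224, 90291, 100006 and 96838 CPM. In the 8 ethanol rats it ranged from 95591 to 102222 CPM with a median of 99078. All 8 ethanol rats lay above the vehicle mean of 94590 ± 4626 CPM (SD, n = 4), yet only 3 lay above the highest vehicle rat, so the groups overlapped. The edgeR log2 fold change was 0.07 (standard error 0.05; adjusted p = 0.971), a 1.05-fold difference.

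The next member, miR-30d-5p, pointed the other way. In vehicle rats 9, 10, 19 and 20 its level was 15885, 18281, 17238 and 19948 CPM. In ethanol rats it ranged from 15351 to 16956 CPM, with a median of 16281. All 8 ethanol rats were below the vehicle mean of 17838 ± 1715 CPM (SD, n = 4) and below 3 of the 4 vehicle rats, but vehicle rat 9 lay within the ethanol range. The edgeR log2 fold change was -0.14 (standard error 0.06; unadjusted p = 0.0453, adjusted p = 0.971). Without vehicle rat 20, the highest, the log2 fold change was -0.08 and the unadjusted edgeR p 0.232, and without vehicle rat 9 they were -0.20 and 0.00784. The unadjusted p was not under 0.05 in 3 of the 4 fits without 1 vehicle rat, in 6 of the 8 without 1 ethanol rat and in 9 of the 10 other scalings, filters and tests.

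The 2 lower miR-30 5p members differed less. In vehicle rats 9, 10, 19 and 20 miR-30c-5p stood at 5641, 5529, 5717 and 6040 CPM, and in ethanol rats it ranged from 5362 to 5977 CPM with a median of 5506 (log2 fold change -0.04, standard error 0.05; edgeR adjusted p = 0.971). The highest ethanol value, 5977 CPM, came from rat 16, which also had the high muscle-type miRNAs. For miR-30e-5p the vehicle levels were 2691, 2625, 2945 and 2888 CPM, and the ethanol levels ran from 2505 to 2982 CPM with a median of 2891 (log2 fold change 0.02, standard error 0.06; edgeR adjusted p = 0.997). In both members the ranges of the groups overlapped widely.

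The level of miR-384-5p was 1437, 1354, 1381 and 1349 CPM in vehicle rats 9, 10, 19 and 20, the tightest of the members in that group, with a coefficient of variation of 2.93%. In ethanol rats it ranged from 1178 to 1449 CPM with a median of 1295. The vehicle range had 5 of the 8 ethanol rats under it and 1 over it. The log2 fold change of -0.08 (standard error 0.06) was within the spread between rats (edgeR adjusted p = 0.971). Its partner miR-384-3p, which was not a member by the rule, had 367 to 408 CPM in vehicle and 326 to 437 CPM in ethanol rats (log2 fold change -0.02, standard error 0.08; edgeR adjusted p = 0.997).

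Of the 3p members, miR-30a-3p was at 2691, 2432, 2833 and 2604 CPM in vehicle rats 9, 10, 19 and 20 and between 2413 and 2940 CPM in ethanol rats (log2 fold change 0.01, standard error 0.07; edgeR adjusted p = 0.9997). The level of miR-30e-3p was 150, 130, 155 and 131 CPM in vehicle rats and 125 to 163 CPM in ethanol rats. That of miR-30d-3p was 23.8, 26.4, 23.3 and 27.2 CPM in vehicle rats and 19.8 to 28.1 CPM in ethanol rats, from 42 to 128 reads per library. In each of these arms the groups overlapped, with ethanol rats both below and above the vehicle range. The 3p arms of miR-30c lay near the level of miR-30d-3p, with miR-30c-2-3p between 37.3 and 57.5 CPM and miR-30c-1-3p between 20.05 and 35.7 CPM over all rats. Their unadjusted edgeR p were 0.527 and 0.673, and the adjusted p 0.971 and 0.982.

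**Figure D3:**
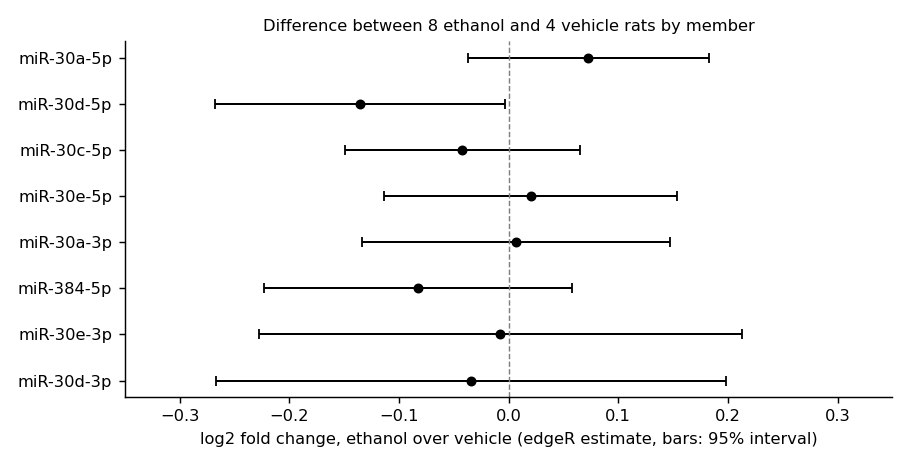
Log2 fold change of each member, ethanol over vehicle (x axis), as estimated by edgeR from 8 ethanol and 4 vehicle rats, with bars for the 95% interval. All intervals include 0 except that of miR-30d-5p, which runs from -0.27 to -0.0033 and is not adjusted for the 420 tests.

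Ratios between members within a library need no scaling factor, and those of miR-30a-5p to miR-30d-5p and to miR-30c-5p were higher in ethanol rats. Relative to miR-30d-5p, miR-30a-5p was 5.74, 4.94, 5.80 and 4.85 times as abundant in vehicle rats 9, 10, 19 and 20. In the 8 ethanol rats the ratio ranged from 5.91 to 6.55 with a median of 6.09. Every ethanol rat was above every vehicle rat. The mean log2 ratio was 2.41 ± 0.14 (SD, n = 4) in vehicle and 2.62 ± 0.05 (SD, n = 8) in ethanol rats, a difference of 0.21 or 1.15-fold (two-sided exact permutation p = 0.00202, the smallest that the arrangements of 4 and 8 rats allow, and 0.0202 adjusted over the 10 pairs of measured 5p members). Vehicle rat 10, with low muscle-type miRNAs, had a ratio of 4.94, and ethanol rat 16, with high ones, 6.00. The oligodendrocyte markers summed to 13447, 9972, 17658 and 9332 CPM in vehicle rats 9, 10, 19 and 20. The lowest ethanol sums, 9827 and 11417 CPM in rats 16 and 24, stood beside ratios of 6.00 and 6.55. Over the 12 libraries miR-30d-5p had a Pearson r of -0.57 with these markers, given in full further on. The part of the marker miRNAs in this ratio was not tested. With any 1 rat left out the log2 difference was between 0.16 and 0.25, and without vehicle rat 9, 10 or 20 the adjusted exact permutation p was 0.0606. The 10 pairs were compared after the members' values had been seen. Since the shares of miR-30a-5p and miR-30d-5p had already been seen not to overlap between the groups, the p of this pair restates that separation and is no independent support for it.

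The pair of miR-30a-5p and miR-30c-5p gave a smaller shift in the same direction. The count of miR-30c-5p joins its precursors on chromosomes 5 and 9, so the shift cannot be assigned to either. The ratio of miR-30a-5p to miR-30c-5p was 16.2, 16.3, 17.5 and 16.03 in vehicle rats 9, 10, 19 and 20. In ethanol rats it ranged from 17.03 to 18.8 with a median of 17.95. All 8 ethanol rats were above the vehicle mean and 6 above every vehicle rat, while rats 3 and 16 lay below vehicle rat 19. The lowest ethanol ratio, 17.03, was that of rat 16, the 1 ethanol rat with high muscle-type miRNAs, while vehicle rat 10, the 1 vehicle rat with low ones, had 16.3. Over the 12 libraries the level of miR-30c-5p, the denominator, had a Pearson r of 0.77 with the muscle-type miRNAs (permutation test, adjusted p = 0.102, given in full further on). The part of the muscle-type miRNAs in this ratio was not tested. The mean log2 ratio was 4.04 ± 0.06 (SD, n = 4) in vehicle and 4.16 ± 0.05 (SD, n = 8) in ethanol rats (difference 0.12 or 1.08-fold, two-sided exact permutation p = 0.00808, adjusted p = 0.0162 over the 2 co-located pairs and 0.0404 over the 10 pairs). With any 1 rat left out it was between 0.10 and 0.14 with an adjusted exact permutation p of at most 0.0485 over the 2 pairs, and up to 0.121 over the 10 pairs (without vehicle rat 20). The other co-located pair, miR-30e-5p and miR-30c-5p, differed by 0.06 on the log2 scale (exact permutation adjusted p = 0.281).

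Of the remaining pairs none passed adjustment over the 10. The ratio of miR-30a-5p to miR-384-5p was 63.5 to 72.4 in vehicle and 68.1 to 86.4 in ethanol rats (log2 difference 0.16, exact permutation p = 0.0485, adjusted p = 0.146). Among the sequences compared, miR-30e-5p was the closest to miR-30a-5p, but the sequence of miR-30d-5p was not among them. Relative to miR-30e-5p, miR-30a-5p was 33.5 to 34.4 times as abundant in vehicle and 33.3 to 39.5 times in ethanol rats (log2 difference 0.05, exact permutation adjusted p = 0.351). An unadjusted exact p under 0.05 was reached by 3 of the 10 pairs, all with miR-30a-5p, beside 133 of the 3160 pairs (4.21%) of miRNAs with a median of at least 1000 CPM. Groups free of overlap were seen in 1 of the 10 pairs and in 10 of the 3160 (0.316%). Pairs that share a member are not independent of each other.

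**Figure D4:**
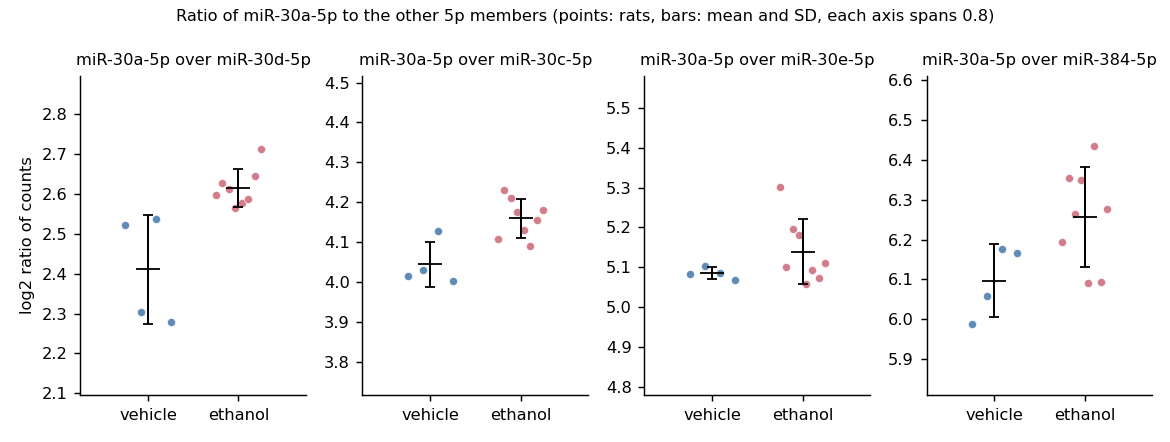
Log2 ratio of the counts of miR-30a-5p to those of miR-30d-5p, miR-30c-5p, miR-30e-5p and miR-384-5p (y axes, each spanning 0.8) in vehicle and ethanol rats, with 1 point per rat and bars for the mean and SD. Only in the first panel do the groups not overlap, with vehicle rats at 2.54 or less and ethanol rats at 2.56 or more.

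How far the 5p arm exceeded the 3p arm differed by precursor and did not differ between treatments beyond the spread. For miR-30d the ratio of 5p to 3p counts was between 584 and 804, for miR-30a between 33.6 and 40.97, for miR-30e between 17.9 and 22.99 and for miR-384 between 3.18 and 3.77. The ratio of miR-30d exceeded that of miR-30a in all 12 libraries by 4.19 on the log2 scale, and that of miR-30a exceeded that of miR-30e in all 12 by 0.89 (two-sided exact sign-flip permutation test, adjusted p = 0.000488 for each, the smallest possible). For miR-30c, set against both of its 3p arms together, the ratio was between 63.2 and 90.3.

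Between treatments the arm ratios did not separate. The log2 ratio of miR-30a was 5.16 ± 0.06 (SD, n = 4) in vehicle and 5.23 ± 0.09 (SD, n = 8) in ethanol rats. For miR-30d it was 9.46 ± 0.07 and 9.36 ± 0.17, and for miR-30e 4.30 ± 0.13 and 4.33 ± 0.11 (SD, same n). None of the 3 differences passed the two-sided exact permutation test (adjusted p = 0.455 for miR-30a and miR-30d and 0.677 for miR-30e). The arm ratio of miR-384, added after the values were seen and given without a test, was 1.82 ± 0.10 (SD, n = 4) and 1.76 ± 0.07 (SD, n = 8) on the log2 scale.

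**Figure D5:**
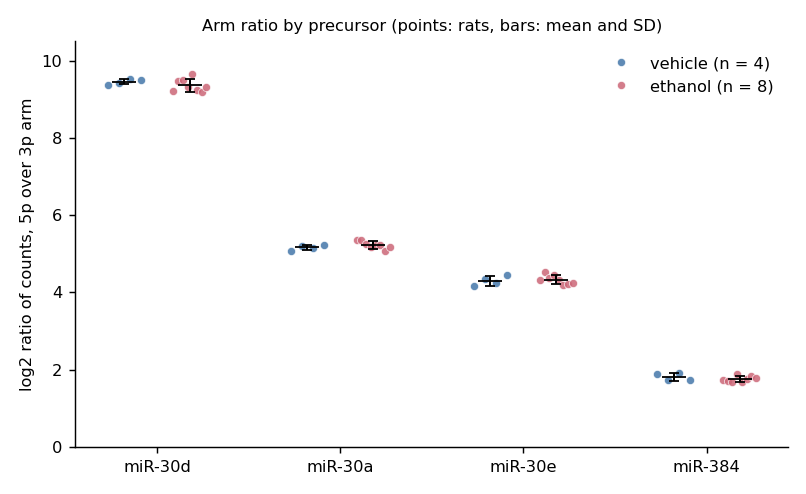
Log2 ratio of 5p to 3p counts (y axis) for miR-30d, miR-30a, miR-30e and miR-384 in each vehicle and ethanol rat, with bars for the mean and SD. The precursors lie far apart, from 9.46 for miR-30d to 1.82 for miR-384 in vehicle rats, and within each precursor both groups overlap.

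The levels of the 2 arms of one hairpin were compared from rat to rat, and no correlation passed adjustment. Over the 12 libraries the levels of miR-30e-5p and miR-30e-3p had a Pearson r of 0.62 (permutation p = 0.0343, adjusted p = 0.172 over 5 relations) and a Spearman rho of 0.62 (permutation p = 0.0372, adjusted p = 0.186). Without the 2 libraries farthest from the median this r was 0.45, and within the ethanol rats it was 0.71. For the arms of miR-30a, r was 0.32 and rho 0.34 (permutation p = 0.311 and 0.275), and for those of miR-30d 0.42 and 0.31 (permutation p = 0.179 and 0.319). Without the 2 farthest libraries these r were 0.19 and 0.21, and within the ethanol rats 0.13 and 0.34. The co-located 5p members were no closer, with r = 0.08 and rho = -0.03 for miR-30a-5p and miR-30c-5p (permutation p = 0.83 and 0.92) and r = 0.19 and rho = 0.13 for miR-30e-5p and miR-30c-5p (permutation p = 0.561 and 0.699). For these pairs r was 0.0064 and 0.39 without the 2 farthest libraries and 0.36 and 0.064 within the ethanol rats. None of the 5 relations passed adjustment. With 12 libraries, little spread between rats and 42 to 128 reads of miR-30d-3p per library, a close relation could have been missed.

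The miRNAs outside the family most like miR-30a-5p across the 12 libraries, among 176 with a mean of at least 100 CPM, were miR-149-5p (Pearson r of log2 CPM 0.66), miR-322-5p (0.54) and miR-24-2-5p (0.52), beside a median r of -0.05. Those most like miR-384-5p were miR-9a-3p, the 3p arm of a neuronal miRNA (0.71), miR-361-3p (0.70) and miR-330-5p (0.68), beside a median r of 0.14. All points of such a comparison share library, depth and scaling, and these values describe the 12 libraries only. They were picked as the highest r among 176 and were not tested, so they do not show a relation.

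Some members also varied with marker sums of hippocampal cell types or of other tissues, though none of these relations passed adjustment. The level of miR-30c-5p had a Pearson r of 0.77 with the summed muscle-type miRNAs (permutation p = 0.0034, adjusted p = 0.102 over 30 relations; Spearman rho 0.60, permutation p = 0.0438, adjusted p = 0.336), 0.59 without the 2 farthest libraries and 0.80 within the ethanol rats. That of miR-384-5p had r = 0.60 with the neuronal markers (permutation p = 0.0374, adjusted p = 0.286; rho = 0.64, permutation p = 0.0299, adjusted p = 0.336) and r = -0.61 with the choroid plexus markers (permutation p = 0.0374, adjusted p = 0.286; rho = -0.64, permutation p = 0.0289, adjusted p = 0.336). Without the 2 farthest libraries these were 0.34 and -0.72, and within the ethanol rats 0.62 and -0.81. The level of miR-30a-5p had r = -0.60 with the neuronal markers (permutation p = 0.0381, adjusted p = 0.286; rho = -0.59, permutation p = 0.049, adjusted p = 0.336), -0.63 without the 2 farthest libraries and -0.32 within the ethanol rats. That of miR-30d-5p had r = -0.57 with the oligodendrocyte markers (permutation p = 0.0495, adjusted p = 0.297; rho = -0.45, permutation p = 0.147, adjusted p = 0.355), -0.31 without the 2 farthest libraries and -0.32 within the ethanol rats. With the muscle-type miRNAs miR-30d-5p had r = 0.44 (permutation p = 0.149, adjusted p = 0.421; rho = 0.48, permutation p = 0.115, adjusted p = 0.355), 0.11 without the 2 farthest libraries and 0.78 within the ethanol rats. Among the ethanol rats only rat 16 had a high muscle-type sum (1712 CPM). It also had the highest ethanol levels of miR-30c-5p (5977 CPM) and miR-30d-5p (16956 CPM). The r of 0.80 and 0.78 within the ethanol rats include rat 16, and no r without it was computed. These 30 relations were computed after the values had been seen and none passed adjustment. The part of cell types and of other tissues in the levels was not tested further.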

How the data were processed

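Small RNA libraries (1 μg total RNA per rat, gel selection of small RNA) had been sequenced by the authors, who deposited 1 table of expected counts (estimated counts per mature miRNA, not scaled) per rat. The submitters' processing notes name Partek, cutadapt and the genome build rn5. The counting method and miRNA annotation are not given in the sources used here, nor is the sequencing set of each library, so sets could not be compared. Reads of near-identical members may have been divided among them.

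Counts were rounded. Rarely read miRNAs (under 10 reads in at least 10 of the 12 libraries) were removed. Groups followed the labels. Ethanol was compared with vehicle with edgeR 4.0.16 in R 4.3.3 (TMM factors, quasi-likelihood test, Benjamini-Hochberg over 420 miRNAs, log2 CPM with a prior count of 2). Ratios, log2((a + 0.5)/(b + 0.5)) of counts, and single levels were tested by exact two-sided permutation (Python 3.11.15, numpy 2.4.6, with the routines tested on simulated data). Correlations used 100000 permutations. Where 3 counts are taken as the floor, it lay between 0.610 and 1.53 CPM, for counting error only. The p-values set group differences against the variation between these rats, and edgeR also draws on the variation of the other miRNAs. All tests take the rats as independent. The study pair-housed its rats and bred them in litters, and neither cage nor litter entered the tests.

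The miRNAs named are the members, the other arms of their precursors, the 3 most correlated miRNAs outside the family for miR-30a-5p and for miR-384-5p, 3 other seed families and marker lists. Members and lists were chosen with earlier results of these data known. Alternatives were other scalings, filters and tests (limma 3.58.1, DESeq2 1.42.0), the library total as a covariate and each rat left out. Added after seeing the data were the comparison of all 10 pairs of 5p members, the 30 marker relations and the arm ratios of miR-384 and miR-30c. Sequences came from RefSeq (GRCr8), matched by name, and no coordinates were taken across builds.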

Additional observations from a re-analysis of the deposited data

How the results depend on the processing

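The log2 fold changes of miR-30a-5p, miR-30c-5p, miR-30d-5p and miR-384-5p kept their sign in all 10 other settings and in all 12 fits with 1 rat left out, and no member had an adjusted p under 0.05 in any of them. That of miR-30d-5p ran from -0.18 to -0.10 over the settings and from -0.20 to -0.08 over the rats left out. The number of members with an unadjusted p under 0.05 was 1 with library totals alone and 0 with RLE, upper-quartile or library-median scaling, with no filter, with at least 10 reads in at least 10 libraries, with filterByExpr, with the library total as a covariate, with DESeq2 and with limma-trend, and between 0 and 1 with 1 rat left out. Among all retained miRNAs, DESeq2 gave 1 adjusted p under 0.05, and leaving out 1 rat gave 0 to 3 (3 without ethanol rat 16).

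Members with differences near 0 changed sign, the cause of which was not tested. For miR-30e-5p the value was -0.016 with library totals alone and between -0.025 and 0.046 with 1 rat left out (-0.0087 and -0.025 without vehicle rats 9 and 10, -0.0046 without ethanol rat 4). For miR-30a-3p it was -0.029 with library totals alone and -0.00103 with the upper quartile, and ran from -0.049 to 0.039 (-0.049 without vehicle rat 10, -0.013 and -0.00079 without ethanol rats 23 and 24). For miR-30d-3p it ran from -0.075 to 0.012 (0.0095 without vehicle rat 20, 0.012 without ethanol rat 15). For miR-30e-3p it was 0.00042 with RLE, 0.000199 with no filter, 0.0203 with at least 10 reads in at least 10 libraries, 0.0122 with filterByExpr, 0.074 with the library total as a covariate and 0.0022 with DESeq2, and ran from -0.065 to 0.037 with 1 rat left out (positive in 5 of 12: 0.0084 and 0.037 without vehicle rats 9 and 19, 0.015, 0.017 and 0.033 without ethanol rats 3, 7 and 8). The median of all retained miRNAs moved between -0.05 and 0.02.

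With 1 rat left out, the log2 arm ratio difference of miR-30e ran from -0.016 (without vehicle rat 9) to 0.083, and that of the pair miR-30e-5p and miR-30c-5p from 0.046 to 0.092, passing the exact test (adjusted p = 0.0242) without ethanol rat 3 only. The difference for miR-30a-5p over miR-30c-5p ran from 0.10 to 0.14 and kept an adjusted p of 0.0121 to 0.0485 over the 2 co-located pairs. Over the 10 pairs it ran from 0.10 to 0.14 with adjusted p up to 0.121, above 0.05 without any one of 9 rats. For miR-30a-5p over miR-30d-5p the range was 0.16 to 0.25, and the adjusted p was above 0.05 (0.0606) without vehicle rat 9, 10 or 20, where 3 vehicle rats allow no unadjusted p under 0.00606. For miR-30d-5p over miR-384-5p it ran from -0.12 to 0.021 (without vehicle rat 20). The order of levels passed at all 7 steps in each setting run. The order in vehicle rats alone was not run, since 4 libraries cannot pass the sign-flip test, nor was anything that needs miR-30b-5p. No paired analysis was possible because the groups share no rat numbers. Depth limited the 3p arms of miR-30d and miR-30c most, at 42 reads or more per library.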
